A study of Mus musculus with 16 samples.

Results

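Open chromatin of NUP98-HOXD13/Flt3-ITD progenitors was compared with that of Flt3-ITD progenitors, which carry the same receptor mutation without the fusion gene. The comparison used 4 of the 16 samples of the study, 2 in each group, and 2 of its 8 peak lists. ATAC-seq maps accessible chromatin from the places where the Tn5 enzyme can reach DNA and cut it. All cells were haematopoietic progenitors, labelled as multipotent progenitors (MPP), from mice 21 days old. The first group carried NUP98-HOXD13 together with Flt3-ITD and the second carried Flt3-ITD alone, so every cell compared had the Flt3-ITD mutation. A second pair of groups from the same titled set, NUP98-HOXD13 and wild type, had neither the Flt3-ITD mutation nor a peak list in common with the first pair. A separately titled set, called set 1 here, held another wild-type list, another Flt3-ITD list, a Runx1-het list and a Flt3-ITD/Runx1-het list. The promoter that drives the fusion gene, the number of mutant Flt3 copies and the difference between the sets are not named in the labels. Per the labels, 1 peak list stands for both samples of a genotype, so no value has a replicate error and genotypes could not be tested against each other. Read depth is unknown.

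Flt3 is the receptor tyrosine kinase that answers FLT3 ligand on early blood progenitors, and an internal tandem duplication (ITD) in it signals without ligand through STAT5 and the RAS-MAPK pathway. NUP98-HOXD13 joins the repeat-rich end of a nuclear pore protein to the homeodomain of HOXD13, and such fusions are known for holding the HOXA and HOXB cluster genes and the cofactor gene MEIS1 active in leukaemia. HOX genes lie in 4 clusters, encode homeodomain transcription factors that bind DNA together with PBX and MEIS proteins, and are switched off as progenitors mature. An ATAC-seq peak at such a gene marks open DNA, not transcription of the gene.

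A few promoters at which the lists differed are shown first because the results turn on them. Hoxd4 and Hoxa13 lay under regions found only in NUP98-HOXD13/Flt3-ITD, Hoxc4 and Hoxb4 under shared regions that ranked higher there, and Daxx under the strongest region found only in Flt3-ITD. Each sequence is a RefSeq promoter window of build GRCm38.p6, 250 bases before to 50 after a gene start, written 5′ to 3′ on the strand of the gene. Capitals mark matches, on either strand, to 1 of 7 short motifs.
Hoxd4 (chr2:74721728-74722027, plus strand): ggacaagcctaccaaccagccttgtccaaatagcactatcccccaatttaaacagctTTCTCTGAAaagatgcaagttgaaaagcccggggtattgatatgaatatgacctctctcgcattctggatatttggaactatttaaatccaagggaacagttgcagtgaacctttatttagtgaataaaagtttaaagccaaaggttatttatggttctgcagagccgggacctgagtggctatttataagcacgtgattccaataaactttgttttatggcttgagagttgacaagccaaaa
Hoxa13 (chr6:52260831-52261130, minus strand): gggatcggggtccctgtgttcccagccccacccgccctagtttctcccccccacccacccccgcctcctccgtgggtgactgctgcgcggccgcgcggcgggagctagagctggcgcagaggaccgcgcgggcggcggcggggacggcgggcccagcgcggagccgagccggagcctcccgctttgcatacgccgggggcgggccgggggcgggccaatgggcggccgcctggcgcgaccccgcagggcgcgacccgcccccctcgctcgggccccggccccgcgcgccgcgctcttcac
Hoxc4 (chr15:103034145-103034444, plus strand): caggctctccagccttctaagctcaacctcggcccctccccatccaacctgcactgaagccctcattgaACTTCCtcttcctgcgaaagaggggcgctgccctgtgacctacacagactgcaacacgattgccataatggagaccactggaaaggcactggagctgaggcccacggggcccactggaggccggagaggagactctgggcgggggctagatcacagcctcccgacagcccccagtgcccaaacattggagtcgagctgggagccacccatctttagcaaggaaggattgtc
Hoxb4 (chr11:96318017-96318316, plus strand): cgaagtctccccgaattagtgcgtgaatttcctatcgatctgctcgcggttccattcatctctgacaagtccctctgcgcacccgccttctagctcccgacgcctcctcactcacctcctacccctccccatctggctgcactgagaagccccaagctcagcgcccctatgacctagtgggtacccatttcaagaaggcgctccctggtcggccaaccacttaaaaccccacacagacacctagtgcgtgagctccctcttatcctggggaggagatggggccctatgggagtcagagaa
Daxx (chr17:33909248-33909547, plus strand): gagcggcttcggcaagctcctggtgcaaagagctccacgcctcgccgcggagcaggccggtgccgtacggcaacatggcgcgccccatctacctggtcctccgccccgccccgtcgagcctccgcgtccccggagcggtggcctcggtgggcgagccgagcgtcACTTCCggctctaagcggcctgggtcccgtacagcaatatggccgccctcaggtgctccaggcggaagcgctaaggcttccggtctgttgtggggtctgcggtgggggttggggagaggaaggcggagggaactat

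Both strands were searched and overlapping matches were counted for each motif. For HOX proteins bound with PBX the motifs were TGATTGAT and TGATTTAT, held by 0.617% and 0.807% of all windows. The RUNX motif was TGTGGT (14.8% of windows). The motif of the erythroid and stem cell zinc finger family was AGATAA (9.57%). The STAT motif was TTCNNNGAA, the ETS motif was GGAAGT, and the repeated motif of interferon regulatory factors was in 3.38% of windows. The capitals in Hoxd4 are a match to TTCNNNGAA, a pattern held by 7.78% of all 20084 promoter windows. Those in Hoxc4 and Daxx are matches to GGAAGT read on the opposite strand, a pattern held by 24.99% of all windows. Hoxa13 and Hoxb4 held no match to any of the 7. A match describes the letters only and is not a binding site.

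NUP98-HOXD13/Flt3-ITD cells had the longer list, and most of what separated the lists was weak. On chromosomes 1 to 19 the list of NUP98-HOXD13/Flt3-ITD held 125898 peaks and that of Flt3-ITD held 81961. Peaks that overlapped within a list formed 75158 regions covering 49.2 Mb in NUP98-HOXD13/Flt3-ITD and 58497 regions covering 33.9 Mb in Flt3-ITD. Each peak carries a −log10 p from the authors' peak caller, whose size depends on the unknown depth, so it was used only to rank peaks within 1 list. The median −log10 p was 25.1 in NUP98-HOXD13/Flt3-ITD and 15.8 in Flt3-ITD. To set lists of one length side by side, the 81961 peaks with the highest −log10 p were kept from NUP98-HOXD13/Flt3-ITD, and 43937 peaks were left out. The lists were then equal in peaks but not in regions, with 64334 regions in NUP98-HOXD13/Flt3-ITD and 58497 in Flt3-ITD. The last peak kept had a −log10 p of 15.3344 and the first left out one of 15.3332, so nothing marks this border in the data. Progenitor marker genes were open in both lists. Of 10 such genes, 9 had a shared region near them, and Ly6a, the gene of the stem cell antigen Sca-1, had none. The best rank near each of the 9 lay between 66.5 and 98.7 in NUP98-HOXD13/Flt3-ITD and between 64.9 and 98.2 in Flt3-ITD, where 100 is the strongest region of a list.

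At equal numbers, merging both lists gave 74439 regions, and 46411 of them (62.3%) were shared. Regions found only in NUP98-HOXD13/Flt3-ITD numbered 17725 (23.8%) and those found only in Flt3-ITD numbered 10303 (13.8%). A NUP98-HOXD13/Flt3-ITD peak lay in 64136 merged regions and a Flt3-ITD peak in 56714. The excess of regions only in NUP98-HOXD13/Flt3-ITD equals this difference in region number, which equal numbers of peaks did not remove. With the strongest part of both lists alone the excess turned round, with 6758 regions only in NUP98-HOXD13/Flt3-ITD and 7442 only in Flt3-ITD. Of the regions only in Flt3-ITD at equal numbers, 8211 had no NUP98-HOXD13/Flt3-ITD peak of any strength and 2092 overlapped one of the weaker peaks left out. Of NUP98-HOXD13/Flt3-ITD regions at ranks 0 to 10, 66.8% had no Flt3-ITD peak, and of those at ranks 90 to 100, 1 of 6414 had none. Of Flt3-ITD regions at ranks 0 to 10, 59.7% had no NUP98-HOXD13/Flt3-ITD peak, and of those at ranks 90 to 100, 2 of 5671 had none. The strongest open regions were thus common to both genotypes, and the lists parted at the weak end.

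**Figure D1:**
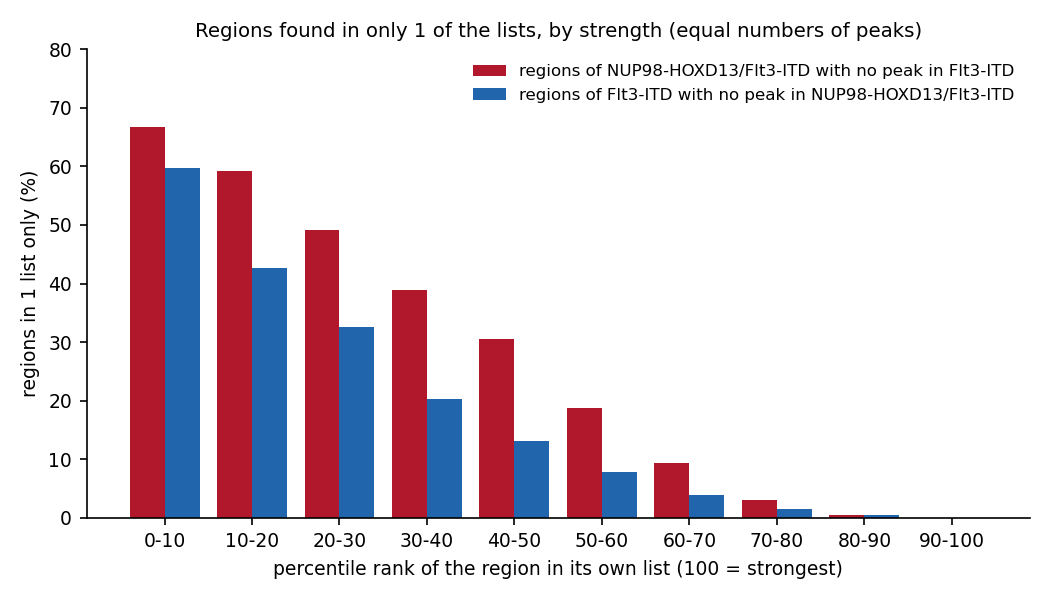
Share of the regions of each list that had no peak in the other list (vertical axis, percent), by the rank of the region in its own list in steps of 10 (horizontal axis, 100 = strongest), with NUP98-HOXD13/Flt3-ITD regions in red and Flt3-ITD regions in blue. The share is 66.8% and 59.7% at ranks 0 to 10 and under 1% above rank 80 in both lists.

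The HOX clusters stood on the NUP98-HOXD13/Flt3-ITD side. Each region was given to its nearest protein-coding gene within 100 kb, which is a label of position and says nothing of which gene the region acts on. Of 59 regions nearest to genes of the 4 HOX clusters, 39 (66.1%, 95% Wilson interval 53.4 to 76.9, which covers counting only) were found only in NUP98-HOXD13/Flt3-ITD and 1 (1.69%) only in Flt3-ITD. Over all 68407 regions with a gene the shares were 24.0% and 12.7%. The Hoxb cluster had 15 of 18 regions only in NUP98-HOXD13/Flt3-ITD, the Hoxc cluster 14 of 17, the Hoxa cluster 6 of 15 and the Hoxd cluster 4 of 9. Chromosome 11, which carries the Hoxb cluster, had the highest share of all chromosomes, 29.1%, and the Hoxb share of 83.3% lay well above it. The remaining 19 regions of the clusters were shared, and their median rank shift, NUP98-HOXD13/Flt3-ITD minus Flt3-ITD, was 18.5 percentile points, against 2.49 over all shared regions with a gene. Of these 19, 7 ranked higher by 25 points or more in NUP98-HOXD13/Flt3-ITD and 0 ranked lower by as much, where 10.9% and 5.88% of all shared regions with a gene did.

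The HOX share exceeded the background at low and at high rank. Among NUP98-HOXD13/Flt3-ITD regions in the lower ranks, under 50, 33 of 42 at the HOX clusters had no Flt3-ITD peak (78.6%), against 49.4% over all genes. Among those at rank 50 or above it was 6 of 16 (37.5%), against 6.30% over all genes.

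The strongest HOX region of the difference lay in the Hoxc cluster, whose genes pattern the trunk and limbs of the embryo. The region at chr15:102999037-103000053, inside the span of Hoxc6, had a −log10 p of 188.6 in NUP98-HOXD13/Flt3-ITD (rank 86.6) and no peak in Flt3-ITD. It had a −log10 p of 175.8 in NUP98-HOXD13 alone (rank 86.0) and no peak in wild type at equal numbers. The full wild-type list did hold a weaker peak there. The full set-1 lists of wild type, Flt3-ITD and Runx1-het held the region too, so it was not confined to lists with the fusion. Near it, regions nearest to Hoxc10 (56.4), Hoxc4 (46.7) and Hoxc9 (39.4) also had peaks in NUP98-HOXD13/Flt3-ITD and none in Flt3-ITD. The Hoxc4 one, chr15:103018708-103019061, was present in NUP98-HOXD13 and in no other of the 6 remaining lists. The promoter of Hoxc4, printed above, was shared, with a −log10 p of 77.1 (rank 64.5) in NUP98-HOXD13/Flt3-ITD and 10.8 (rank 20.3) in Flt3-ITD, a shift of 44.1 points. Its rank was 64.6 in NUP98-HOXD13 and lower still in wild type, so both lists with the fusion held it high and both set-2 lists without it held it low.

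The Hoxb cluster, which holds Hoxb4, a factor that expands blood stem cells when overexpressed, showed the same split from Hoxb9 to Hoxb1. A region inside the span of Hoxb3, chr11:96306853-96307239, had a −log10 p of 80.1 in NUP98-HOXD13/Flt3-ITD and no peak in Flt3-ITD, and of the 6 other lists only NUP98-HOXD13 held it. A Hoxb6 region (66.4) and the promoter of Hoxb1 (51.4) also had no Flt3-ITD peak, yet both were present in wild type. The promoter of Hoxb4 was shared and ranked 25.7 points higher, at 71.3 in NUP98-HOXD13/Flt3-ITD against 45.6 in Flt3-ITD. It ranked 65.1 in NUP98-HOXD13 and 69.4 in wild type, so here the Flt3-ITD list was the low one. The 1 cluster region found only in Flt3-ITD lay near Hoxb3 at chr11:96341030-96341333, with a −log10 p of 13.1 there.

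The Hoxa cluster, whose Hoxa9 gene is the best known HOX partner of Meis1 in myeloid leukaemia, differed in presence at 6 of 15 regions and in rank at 4 of its 9 shared ones. Shared regions ranked higher in NUP98-HOXD13/Flt3-ITD at the promoter of Hoxa3 (by 44.2 points), at Hoxa11 (32.2) and inside Hoxa9 (30.2). The Hoxa9 region ranked 60.7 in NUP98-HOXD13/Flt3-ITD against 30.4 in Flt3-ITD, and 60.7 in NUP98-HOXD13 against 41.5 in wild type. The Hoxa3 promoter also ranked higher in NUP98-HOXD13 (47.8 against 16.4 in wild type), whereas the Hoxa11 region ranked far lower there (11.4 against 54.0). Regions only in NUP98-HOXD13/Flt3-ITD included one at Hoxa10 (62.9), a gene of posterior patterning that is also expressed in progenitors, and the promoter of Hoxa13 (27.2). The Hoxa13 promoter was present in NUP98-HOXD13 and in all set-1 lists but wild type, and absent from both wild-type lists, while the Hoxa10 region was present in every other list.

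In the Hoxd cluster, the source of the fused HOXD13 sequence, 4 regions had no Flt3-ITD peak. They were regions at Hoxd11 (41.6), the promoter of Hoxd1 (37.8), the promoter of Hoxd4 (29.4) and a region of Hoxd3 (24.7). Those of Hoxd11, Hoxd1 and Hoxd3 were also present in NUP98-HOXD13 and in both wild-type lists. At equal numbers the Hoxd11 region was in wild type and not in NUP98-HOXD13. The Hoxd4 promoter was held by NUP98-HOXD13 and by no other of the 6 lists. A shared Hoxd3 region ranked 50.7 in NUP98-HOXD13/Flt3-ITD against 9.38 in Flt3-ITD, yet 18.9 in NUP98-HOXD13 against 51.8 in wild type. The region nearest to Hoxd13 itself was shared at ranks of 23.4 in NUP98-HOXD13/Flt3-ITD and 22.3 in Flt3-ITD, and accessibility at this gene does not read a transgene.

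The cofactor genes went the other way. Regions nearest to genes of the MEIS and PBX families, which encode the partners that steer HOX proteins to DNA, were found only in NUP98-HOXD13/Flt3-ITD in 7 of 53 cases (13.2%) and only in Flt3-ITD in 17 (32.1%). The background shares were 24.0% and 12.7%. Of their 29 shared regions, 1 ranked higher by 25 points (at Pbx3, by 26.6) and 3 ranked lower. The lower ones included regions at Meis2 (rank 16.6 in NUP98-HOXD13/Flt3-ITD against 73.9 in Flt3-ITD) and Meis1 (19.8 against 58.5). The promoter of Meis1 itself was strong in both, at rank 88.8 in NUP98-HOXD13/Flt3-ITD and 94.0 in Flt3-ITD. The differences at Meis1 therefore lay among its weaker regions.

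NUP98-HOXD13 and wild type, which share no list with the pair above, gave a like HOX contrast without Flt3-ITD, mostly at Hoxb and Hoxc. Of 59 cluster regions, 17 (28.8%) were in NUP98-HOXD13 and not wild type at equal numbers, against 6.81% of all regions with a gene. All 17 were among the 39 found only in NUP98-HOXD13/Flt3-ITD. Over all genes, 2878 of the 4656 regions in NUP98-HOXD13 and not wild type were also found only in NUP98-HOXD13/Flt3-ITD, so much of this overlap was general. The 17 were spread unevenly over the clusters. They were 9 of 17 Hoxc regions and 6 of 18 Hoxb regions, but 1 of 15 Hoxa regions (6.67%) and 1 of 9 Hoxd regions. Another 1 of the Hoxd regions was in wild type and not in NUP98-HOXD13. In a comparison merged from those 2 lists alone, 20 of 54 cluster regions (37.0%) were found only in NUP98-HOXD13 and 2 only in wild type, where 11.4% and 13.9% of all regions with a gene were. The MEIS and PBX genes had 4 of 56 regions only in NUP98-HOXD13 and 16 only in wild type. Members and lists were chosen with earlier results of these data known, so this repeat describes the lists and is not independent evidence.

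A second Flt3-ITD list, that of set 1, gave a smaller HOX difference. Of the 39 HOX cluster regions found only in NUP98-HOXD13/Flt3-ITD, 16 had a peak in that second Flt3-ITD list and 23 (59.0%) had none, while 29.9% of all regions with a gene found only in NUP98-HOXD13/Flt3-ITD had none. The Hoxc6 region was among the 16. With the set-1 list in place of the set-2 list, 26 of 62 cluster regions (41.9%) were found only in NUP98-HOXD13/Flt3-ITD, against 12.5% of all regions with a gene, and the median shift of the 32 shared ones was 11.2 points. Set against each other, the Flt3-ITD lists of equal genotype also differed at these genes. Of 39 cluster regions in either, 2 were found only in set 2 and 18 (46.2%) only in set 1, against 9.52% and 24.3% over all genes. The set-2 Flt3-ITD list thus lacked HOX regions against a list of its own genotype too, and what sets these lists apart cannot be told apart from the genotype comparison. The wild-type lists differed as well, with 8 of 47 cluster regions (17.0%) only in set 2 and 13 (27.7%) only in set 1. Over all genes these shares were 12.8% and 10.8%. For MEIS and PBX genes the set-1 Flt3-ITD list gave 5 of 55 regions (9.09%) only in NUP98-HOXD13/Flt3-ITD and 19 (34.5%) only in Flt3-ITD. The shares over all genes were 12.5% and 15.8% there.

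For the other gene lists, the shares found only in NUP98-HOXD13/Flt3-ITD lay near the background, and some of those found only in Flt3-ITD did not. Regions only in NUP98-HOXD13/Flt3-ITD made up 26.0% of 254 regions of stem cell self-renewal genes, 24.9% of 209 of lymphoid priming genes, 21.6% of 153 of STAT5 targets, 24.3% of 173 of MAPK feedback genes, 22.0% of 141 of interferon response genes and 23.0% of 161 of cell cycle genes. The housekeeping list, with 21.3% of 75, gives the level for genes that every cell uses. Somewhat higher shares were found for mast, basophil and eosinophil genes (31.0% of 71) and granulocyte-monocyte genes (30.6% of 111), and their counting intervals reached down to the background. Regions only in Flt3-ITD were few at housekeeping genes (2.67%), STAT5 targets (5.88%), interferon response genes (6.38%), granulocyte-monocyte genes (7.21%) and lymphoid priming genes (7.66%), against 12.7% over all genes. The counting intervals of these lists except granulocyte-monocyte genes lay below 12.7%, and that of stroma and endothelium genes (19.2%) lay above it.

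**Figure D2:**
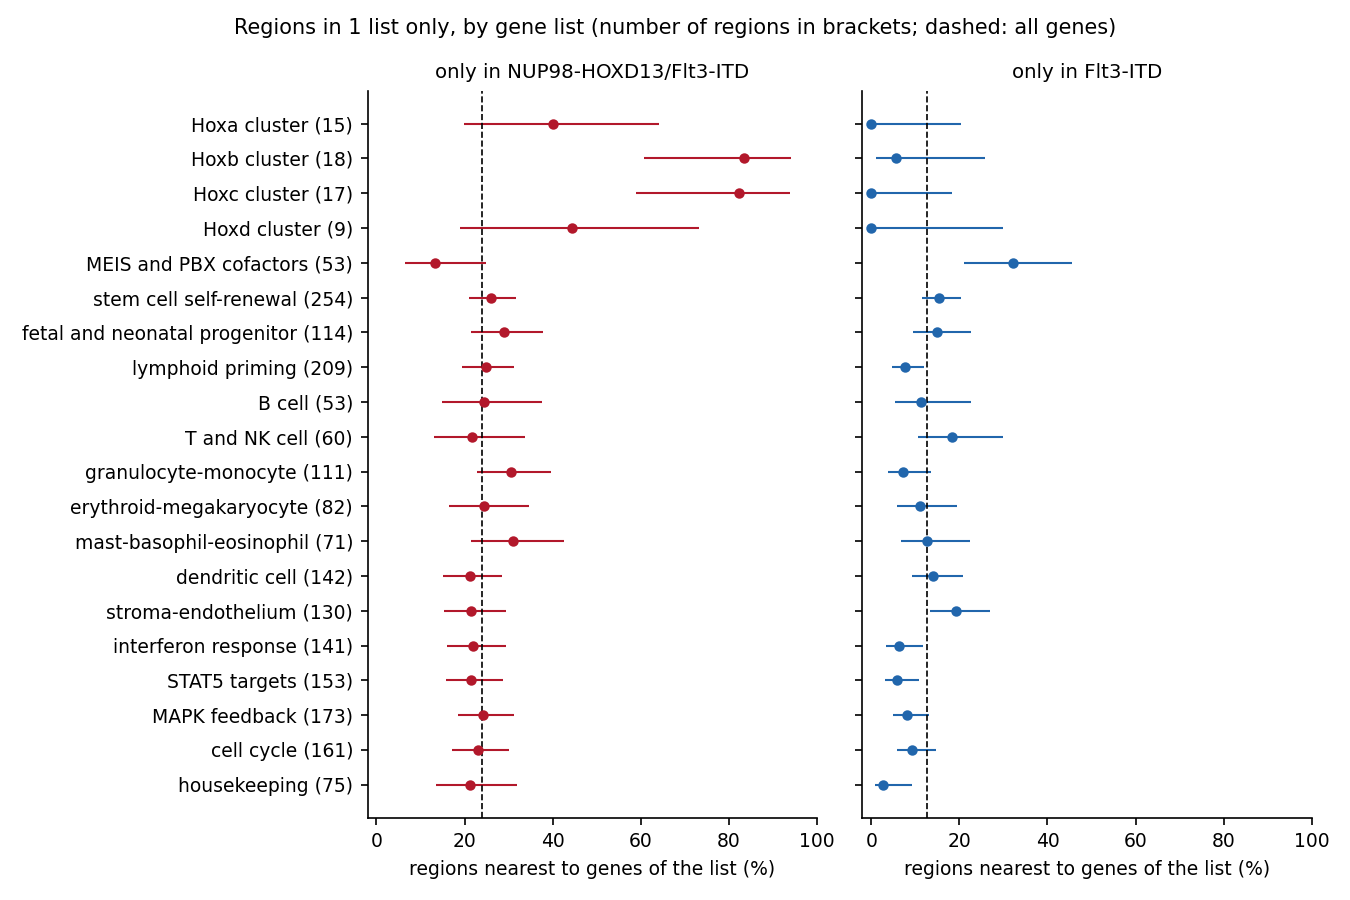
Percent of the regions nearest to the genes of a list that were found only in NUP98-HOXD13/Flt3-ITD (left) or only in Flt3-ITD (right), with 95% Wilson intervals that cover counting only, the number of regions in brackets and a dashed line at the share over all genes (24.0% and 12.7%). The Hoxb and Hoxc clusters lie at 83.3% and 82.4% on the left, and the MEIS and PBX genes at 32.1% on the right.

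Fetal and neonatal progenitor genes, which are switched off as the blood system matures after birth, had 33 of 114 regions (28.9%) only in NUP98-HOXD13/Flt3-ITD. The counting interval, 21.4 to 37.9, held the 24.0% over all genes. Another 17 of the 114 (14.9%) were only in Flt3-ITD, against 12.7% over all genes. With the set-1 Flt3-ITD list the fetal and neonatal genes had 26 of 118 (22.0%) only in NUP98-HOXD13/Flt3-ITD, against 12.5% over all genes. Granulocyte-monocyte genes then had 17 of 122 (13.9%). Of the 64 shared fetal and neonatal regions, 14 (21.9%) ranked higher by 25 points in NUP98-HOXD13/Flt3-ITD and 3 lower, against 10.9% and 5.88% over all genes. A region inside Igf2bp3, an RNA-binding protein of fetal stem cells, ranked 70.4 in NUP98-HOXD13/Flt3-ITD against 13.7 in Flt3-ITD, and 78.6 in NUP98-HOXD13 against 29.0 in wild type. A second Igf2bp3 region was found only in NUP98-HOXD13/Flt3-ITD, with a −log10 p of 103.0. It ranked 65.9 in NUP98-HOXD13 and 73.3 in wild type and was present in the Flt3-ITD list of set 1. The promoter of Lin28b, which blocks let-7 miRNA maturation and holds the fetal programme, ranked 65.7 in NUP98-HOXD13/Flt3-ITD against 27.5 in Flt3-ITD. This promoter region was chr10:45469858-45470607. The region directly beside it, chr10:45469321-45469789, ranked 32.6 points lower in NUP98-HOXD13/Flt3-ITD. Both had the same wild-type rank, 35.8, so they may be parts of 1 open stretch. Arid3a ranked 53.3 points higher at 1 region and had another region only in Flt3-ITD (21.9).

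At signalling genes, regions differed in both directions within the same gene. Among STAT5 targets, regions of Bcl6 (99.1) and of the cyclin genes Ccnd1 (95.7) and Ccnd2 (84.1) were found only in NUP98-HOXD13/Flt3-ITD. A region near Socs3, the feedback inhibitor of cytokine signalling, ranked 33.6 points higher in NUP98-HOXD13/Flt3-ITD, and another Socs3 region, with a −log10 p of 22.8, was found only in Flt3-ITD. A region near Bcl2, the survival gene, ranked 49.1 points lower. Of MAPK feedback genes, a region at Egr3, an immediate early transcription factor, ranked 61.5 points higher, at 80.2 in NUP98-HOXD13/Flt3-ITD against 18.7 in Flt3-ITD. Spred2, an inhibitor of RAS signalling, had a region only in NUP98-HOXD13/Flt3-ITD (102.0) and another that ranked 50.2 points lower there. Of the 101 shared interferon response regions, 9 (8.91%) ranked higher and 4 (3.96%) lower. Both shares lay below those over all genes, 10.9% and 5.88%. The largest shift was at Irf1 (46.4 points), a transcription factor induced by interferon.

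Lineage genes gave no single direction either. In the granulocyte-monocyte list, regions near Ms4a3 (78.1) and Ctsg (67.1), genes of granulocyte-monocyte progenitors and their granules, were found only in NUP98-HOXD13/Flt3-ITD. The Ms4a3 region was nonetheless in all 6 other lists. The Ctsg region was in both wild-type lists and the set-1 Flt3-ITD list, and not in NUP98-HOXD13. A region near Irf8, the factor of monocyte and dendritic fate, ranked 48.8 points lower in NUP98-HOXD13/Flt3-ITD. In the erythroid-megakaryocyte list, a region near Slc4a1 (129.8), the anion exchanger of red cells, and the promoter of Itga2b (85.9), the platelet integrin, were found only in NUP98-HOXD13/Flt3-ITD, and a region near Vwf, the von Willebrand factor gene, ranked 44.7 points lower. B-cell regulator genes were divided too, with a Pax5 region (81.5) that, of the 6 other lists, only NUP98-HOXD13 held, and an Ebf1 region found only in Flt3-ITD (11.9) beside another that ranked 28.7 points higher in NUP98-HOXD13/Flt3-ITD. T and NK cell genes had 13 of 60 regions only in NUP98-HOXD13/Flt3-ITD (21.7%) and 11 only in Flt3-ITD, and stroma and endothelium genes had 28 of 130 and 25 (19.2%). Whether the share of other cell types differed between the sorted samples was not tested, and fewer cells of a type cannot be told apart from less open DNA per cell.

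Beyond the gene lists, the strongest regions found only in NUP98-HOXD13/Flt3-ITD were mostly regions that the other lists held as well. The highest −log10 p was 259.2, near Nmd3, which encodes an export adaptor of the large ribosomal subunit. Other regions among the 10 strongest lay near Ripor3 (190.1), Hoxc6 (188.6), Arg2 (185.3), the mitochondrial arginase, and Pde4dip (174.7). Gys1, the glycogen synthase of muscle (171.6), Peli3, a ubiquitin ligase (168.7, at the promoter), Ust, a sulfotransferase (165.0), and Gosr1, a Golgi SNARE protein (156.2, at the promoter), were also among them. Of these 10 regions, 8 were also in the Flt3-ITD list of set 1 at equal numbers, and those near Ripor3 and Ust were not. The Ust region had no peak there at any strength.

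The strongest regions found only in Flt3-ITD ranked 84.9 to 93.9 in that list, where the 10 above ranked 82.9 to 91.9 in NUP98-HOXD13/Flt3-ITD. The promoter of Daxx, a chaperone of histone H3.3, had a −log10 p of 99.9 (rank 93.9) in Flt3-ITD and no peak in NUP98-HOXD13/Flt3-ITD. It ranked 95.3 in NUP98-HOXD13 and 90.4 in wild type and was present in all 6 other lists, so NUP98-HOXD13/Flt3-ITD was the only list without it. Next came regions near Nid1 (67.5), a basement membrane protein, Pid1 (66.8), Pclo (64.7), a protein of the presynaptic zone, Sqor (62.7), a mitochondrial sulfide oxidase, Kcnip4 (61.4), Tnfrsf21 (59.5), a death receptor, Ang6 (59.5), Acvr2a (59.4), an activin receptor, and Olfr308 (59.4). Ang6 and Olfr308 belong to families of near-identical genes, so their reads are uncertain. The Kcnip4, Ang6 and Acvr2a regions were present in every list without NUP98-HOXD13 and absent from NUP98-HOXD13 alone, while the Nid1, Pid1, Sqor and Tnfrsf21 regions were in all 6 other lists. All 10 were found in the Flt3-ITD list of set 1 as well.

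Among shared regions the rank shifts were wider than between lists of equal genotype. At 25 points or more, 4974 regions (10.7%) ranked higher in NUP98-HOXD13/Flt3-ITD and 3036 (6.54%) ranked lower, and the SD of the shift was 18.3 points. Between the wild-type lists of sets 2 and 1 the shares were 4.57% and 3.44% with an SD of 13.6 points. Between the Flt3-ITD lists of sets 2 and 1 they were 3.49% and 8.94% with an SD of 15.4 points. In the second pair the list first in the difference is the short Flt3-ITD list, and it ranked lower at nearly as large a share of regions as it did against NUP98-HOXD13/Flt3-ITD. In presence, 24.1% of the regions of that pair were missing from the set-2 Flt3-ITD list, against the 23.8% missing from it beside NUP98-HOXD13/Flt3-ITD. Set against the set-1 Flt3-ITD list, NUP98-HOXD13/Flt3-ITD had 9800 regions (12.8%) of its own and lacked 12585 (16.4%). With ranks taken among shared regions alone, 3752 regions ranked higher and 3998 lower, so the excess of higher shifts, 62.1% of shifted regions, did not hold and was 48.4%.

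**Figure D3:**
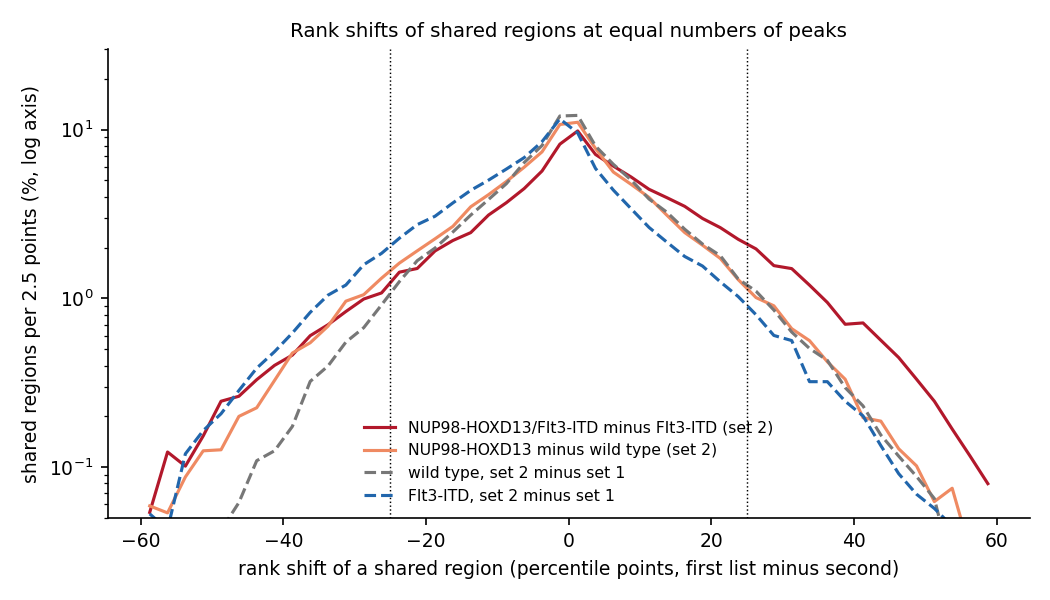
Distribution of rank shifts of shared regions (horizontal axis, percentile points, first list minus second; vertical axis, percent of shared regions per bin on a log axis; dotted lines at the limit of 25 points) for NUP98-HOXD13/Flt3-ITD minus Flt3-ITD, NUP98-HOXD13 minus wild type and 2 pairs of equal genotype. The red curve is the widest on the positive side, with 10.7% of regions past the limit, and the Flt3-ITD pair is the widest on the negative side, with 8.94%.

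The largest shifts were taken from regions in the strongest 25% of the list that ranked them higher. The promoter of Dnajb14, a co-chaperone, ranked 92.6 in NUP98-HOXD13/Flt3-ITD (−log10 p 270.8) against 14.6 in Flt3-ITD (9.6), a shift of 78.0 points. Its fold enrichment in the authors' lists was 3.25 in NUP98-HOXD13/Flt3-ITD and 3.07 in Flt3-ITD, and in the other 9 regions of this group it was 11.3 to 23.6 in NUP98-HOXD13/Flt3-ITD and 4.71 to 6.17 in Flt3-ITD. The Dnajb14 promoter ranked 41.5 in NUP98-HOXD13 and 24.7 in wild type. A region near Lrrc37a, one of a family of similar genes, shifted by 78.7 points. Cnih3, an auxiliary subunit of glutamate receptors (76.1), Slc29a4, a monoamine transporter (73.8), Map4k5, a kinase (71.8), Adgrf5, an adhesion receptor (69.4), Fto, an RNA demethylase (68.6), Nek10, a kinase (68.5), 1700125H20Rik (66.6) and Cped1 (66.1) followed. The Map4k5, Adgrf5 and Fto regions ranked 68.4 to 82.1 in NUP98-HOXD13 and had no wild-type peak at equal numbers. In the lower direction, a region near Ric8b, a chaperone of G proteins, ranked 2.3 in NUP98-HOXD13/Flt3-ITD against 82.2 in Flt3-ITD, a shift of -79.9 points. Amotl2, a Hippo pathway scaffold (-78.2), Erc2, a presynaptic protein (-77.5), Trat1, an adaptor of the T cell receptor (-76.7), Plpp3, a lipid phosphatase (-75.9), the promoter of the imprinted gene Zim1 (-75.7), Msr1, the macrophage scavenger receptor (-74.9), Adam22 (-74.0), Ipo11, an importin (-72.2), and Eea1, an early endosome protein (-72.2), followed. Of these 10 lower regions, those near Ric8b, Erc2 and Ipo11 had no NUP98-HOXD13 peak at equal numbers and ranked 51.3 to 76.6 in wild type. The Plpp3 and Eea1 regions went the other way, at ranks of 26.3 and 45.2 in NUP98-HOXD13, where wild type had no peak at equal numbers at Plpp3 and a rank of 24.5 at Eea1.

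At equal numbers, NUP98-HOXD13 against wild type followed the same split over the whole set of regions. Of the 17725 regions only in NUP98-HOXD13/Flt3-ITD, 3189 were in NUP98-HOXD13 and not in wild type, and 2055 (11.6%) in wild type and not in NUP98-HOXD13. Of those only in Flt3-ITD, 7.35% were in NUP98-HOXD13 and not in wild type, and 26.5% the reverse. Over all merged regions the shares were 6.93% and 8.83%. Where the rank was higher in NUP98-HOXD13/Flt3-ITD, 11.9% of 4656 regions also ranked higher in NUP98-HOXD13 than in wild type by 25 points and 2.23% ranked lower. Where it was lower, 1.64% of 2381 ranked higher in NUP98-HOXD13 and 26.9% ranked lower. The median of NUP98-HOXD13 minus wild type was 6.01 points in the first class, -14.0 in the second and -0.36 in shared regions under the limit. With all deposited peaks of NUP98-HOXD13 and wild type, the larger count changed sides for regions only in NUP98-HOXD13/Flt3-ITD. Of these, 2208 (12.5%) were in NUP98-HOXD13 and not in wild type and 2450 (13.8%) the reverse. Over all merged regions the shares were then 4.67% and 9.65%, so both lay above the background, the first further above it. For regions only in Flt3-ITD the shares were 6.47% and 31.2%, with the larger on the same side as at equal numbers.

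**Figure D4:**
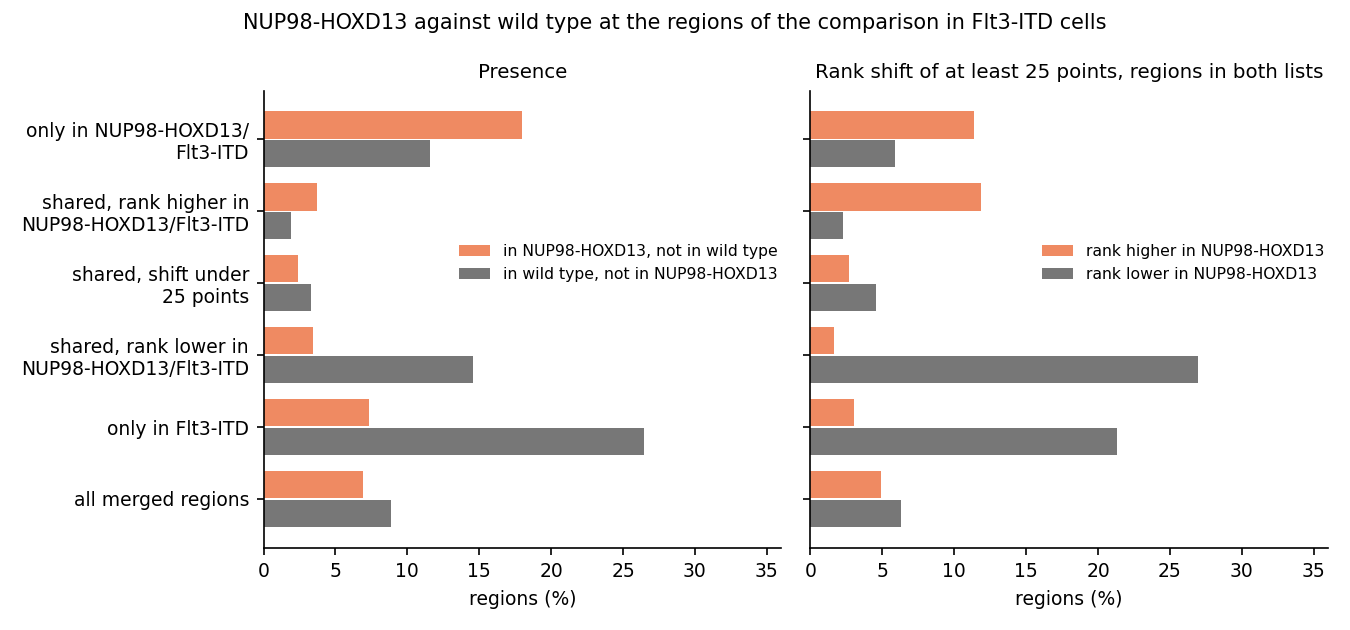
NUP98-HOXD13 against wild type at the regions of each class of the main comparison (rows), as the percent present in only one of those lists (left) and the percent of regions in both with a shift of 25 points or more (right). Orange bars are longer than grey ones in the upper 2 classes, and grey bars reach 26.5% for regions only in Flt3-ITD and 26.9% for shared regions that ranked lower in NUP98-HOXD13/Flt3-ITD.

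Presence in the other 6 lists separated the classes further. Of the regions only in NUP98-HOXD13/Flt3-ITD, 6406 (36.1%) were in all 6 others and 540 (3.05%) in none. Of those only in Flt3-ITD, 1790 (17.4%) were in all 6 and 1113 (10.8%) in none. Over all merged regions, shared ones included, 65.2% were in all 6 and 2.26% in none. A class chosen after its values were seen held 668 regions present in NUP98-HOXD13/Flt3-ITD and NUP98-HOXD13 and in no other list. They were 3.77% of the regions only in NUP98-HOXD13/Flt3-ITD, led by regions near Gramd1b (127.2), a sterol transfer protein, Grxcr1 (123.6), Klhl3 (115.9), Pde4dip (115.8) and Ift80 (114.2). A matching class of 654 regions was present in Flt3-ITD and every other list without the fusion and absent from both lists with it. These were 7.96% of the 8211 Flt3-ITD regions with no NUP98-HOXD13/Flt3-ITD peak of any strength. Another 162 of the 8211 (1.97%) were only in the 3 lists with Flt3-ITD and no NUP98-HOXD13, led by a region near the collagen gene Col6a3 (56.9).

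The classes lay at different places relative to genes. Of the regions only in NUP98-HOXD13/Flt3-ITD, 3.79% overlapped a promoter window, against 2.23% of those only in Flt3-ITD, with chromosome 18 left out of both because no windows were used there. Of the shared regions, 17.1% of those that ranked higher in NUP98-HOXD13/Flt3-ITD and 4.52% of those that ranked lower did, against 22.6% of those under the limit. The median distance to the nearest gene start was 29.8 kb for regions only in NUP98-HOXD13/Flt3-ITD and 55.7 kb for those only in Flt3-ITD, and it was 19.9 kb for higher and 60.0 kb for lower shared regions. More than 100 kb from any protein-coding gene lay 7.20% of the regions only in NUP98-HOXD13/Flt3-ITD and 15.4% of those only in Flt3-ITD. The Flt3-ITD side was thus the more gene-distant one in presence and in rank.

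Base composition of the promoter windows varied with class. The median GC content was 60% in 695 windows under regions only in NUP98-HOXD13/Flt3-ITD and 55% in 149 under Flt3-ITD regions with no NUP98-HOXD13/Flt3-ITD peak of any strength, with median CpG counts of 15 and 8. In 80 further windows only in Flt3-ITD at equal numbers, which overlapped a weaker NUP98-HOXD13/Flt3-ITD peak, the median GC content was 60.3% and the median CpG count 11.5. Median GC content was 61.3% in windows that ranked higher in NUP98-HOXD13/Flt3-ITD and 57.3% in those that ranked lower. In shared windows under the limit it was 62.3%, with a median CpG count of 22. It was 57% over all windows, which include 7748 with no region in either list (48%). The HOX with PBX pattern TGATTTAT was in 3 of the 695 windows only in NUP98-HOXD13/Flt3-ITD (0.432%), in 0 of the 149 and in 1 of the 80 only in Flt3-ITD, against 0.807% of all. In shared windows it was in 0.202% of those that ranked higher in NUP98-HOXD13/Flt3-ITD, 2.17% of those that ranked lower and 0.244% of those under the limit. The other such pattern, TGATTGAT, was in 0.144% of the windows only in NUP98-HOXD13/Flt3-ITD and in 0.671% of the 149. It was in 0.224% of shared windows under the limit. These shares rest on 3 windows or fewer each, apart from those of all windows and of shared windows under the limit. The ETS pattern GGAAGT was in 24.2% of windows only in NUP98-HOXD13/Flt3-ITD and in 20.1% of the 149. It was in 28.1% of shared windows under the limit and 24.99% of all.

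The genes with the most regions in 1 list only were long genes, and the sides held different ones. Abr had 16 of its 26 regions only in NUP98-HOXD13/Flt3-ITD, Atxn1 had 15 of 29 and Tshz2 had 15 of 41. On the Flt3-ITD side Rbfox1, a neuronal splicing factor, had 16 of 26, Ank3, the neuronal ankyrin, had 12 of 23, Nrg1, the ligand neuregulin, had 12 of 22 and Macrod2 had 12 of 27. Nrg1 and Rbfox1 had 0 and 1 region only in NUP98-HOXD13/Flt3-ITD. Of 16279 genes with a region, 8348 (51.3%) had at least 1 only in NUP98-HOXD13/Flt3-ITD and 5117 (31.4%) at least 1 only in Flt3-ITD.

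With all deposited autosomal peaks, the longer list gained further. Of 83037 regions, 26354 (31.7%) were found only in NUP98-HOXD13/Flt3-ITD and 8211 (9.89%) only in Flt3-ITD. Of 48472 shared regions, 7832 (16.2%) ranked higher in NUP98-HOXD13/Flt3-ITD and 1758 (3.63%) lower, so that 81.7% of shifted regions were higher ones. Ranks from lists of unequal length show no change by themselves. The HOX clusters had 57 of 77 regions (74.0%) only in NUP98-HOXD13/Flt3-ITD, where all genes had 31.9%, and the MEIS and PBX genes had 11 of 56 on each side (19.6%). The MEIS and PBX lean towards Flt3-ITD was thus smaller with all peaks, against a background of 9.02%.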

How the data were processed

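ATAC-seq libraries were prepared with Tn5 transposase from progenitors of 21-day-old mice, per the labels' protocols. The submitters' processing notes name Bowtie2, MACS2 and the builds mm10 and GRCm38. Versions, thresholds and read shifting were not stated in the labels. The authors deposited 1 peak list per group with a score (413 to 1000, meaning not stated), a fold enrichment, a −log10 p and a summit offset for each peak. The samples of each genotype point to 1 common list, so replicates could not be compared, and read depth is unknown. Members and gene lists were chosen with earlier results of these data known.

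Peaks on chromosomes 1 to 19 were kept, and the 81961 peaks with the highest −log10 p were taken from each list. Peaks of both lists that shared 1 bp or more were merged. A region has the rank of its strongest peak, as a percentile within its list, and a shift of 25 points or more was counted. The nearest protein-coding gene within 100 kb came from RefSeq (GRCm38.p6). Named regions were the 10 strongest of each list's own regions and the 10 largest shifts in each direction with a rank in the top 25%, plus up to 4 regions per class from each gene list. A few of these are not reported here. Of 396 distinct genes in 16 lists, 388 matched. The code was tested on simulated data and run with Python 3.11.15, numpy 2.4.6, pandas 2.3.3, scipy 1.17.1 and matplotlib 3.10.9. Alternatives were all peaks, ranking by fold, equal numbers of regions, the strongest part of both lists, other shift limits, overlaps and ranks, and, added after seeing the data, the set-1 Flt3-ITD list and median-subtracted shifts.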

Additional observations from a re-analysis of the deposited data

Results flagged for a closer look

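Some regions pointed opposite ways in the comparisons with and without Flt3-ITD. A total of 1398 regions (7.89% of those only in NUP98-HOXD13/Flt3-ITD) had no peak in Flt3-ITD yet were present in wild type at equal numbers and had no NUP98-HOXD13 peak of any strength, against 6.16% of all merged regions. This rule is narrower than the one at equal numbers in both lists, which gave 2055. The 1398 included regions near Efcab5 (−log10 p 72.0 in NUP98-HOXD13/Flt3-ITD) and Lmx1b (69.9), a LIM-homeodomain factor, and the promoter of Slc29a1 (67.6), a nucleoside transporter. In the other direction, 244 regions had a peak in Flt3-ITD and none in NUP98-HOXD13/Flt3-ITD, while they were present in NUP98-HOXD13 at equal numbers and had no wild-type peak of any strength. They were 2.97% of the 8211 Flt3-ITD regions with no NUP98-HOXD13/Flt3-ITD peak of any strength, against 3.27% of all merged regions, and included ones near Arhgap24 (31.5 in Flt3-ITD) and Cmc2 (30.8). These differences were not tested, since each group has 1 list.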

How the results depend on the processing

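No paired analysis was possible because both samples of a group share 1 deposited list, and for the same reason no replicate could be left out. At equal numbers 17725 regions were only in NUP98-HOXD13/Flt3-ITD and 10303 only in Flt3-ITD, and 4974 shared regions ranked higher and 3036 lower. Counts within 1.5 times of these came from other overlap rules, ranks among shared regions, equal numbers of regions and median-subtracted shifts. All peaks gave 7832 higher and 1758 lower, a limit of 15 points 10246 and 6308, and a limit of 40 points 1318 and 871. The strongest part of both lists (the stronger 0.5 of the shorter one) gave 6758 regions only in NUP98-HOXD13/Flt3-ITD, 7442 only in Flt3-ITD and 2522 higher. The set-1 Flt3-ITD list gave 9800, 12585 and 3258, so the excess of regions only in NUP98-HOXD13/Flt3-ITD ended under both. The share of shifted regions that were higher, 62.1%, was 81.7% with all peaks, 64.2% with fold, 53.4% with the median subtracted, 48.5% with equal numbers of regions, 48.3% in the strongest part, 48.4% among shared ranks and 42.5% with the set-1 list.

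Of regions only in NUP98-HOXD13/Flt3-ITD, the share in NUP98-HOXD13 and not wild type (17.99%) was 13.3% with all peaks, 16.96% with fold, 6.07% in the strongest part and 26.6% with the set-1 list. Of regions only in Flt3-ITD, the share in wild type and not NUP98-HOXD13 (26.5%) was 31.8%, 25.03%, 16.5% and 28.2% in that order. At promoters lay 3.79% of the first and 2.23% of the second. With all peaks these were 3.36% and 1.85%, with fold 3.15% and 2.65%, with equal numbers of regions 4.16% and 2.75% and in the strongest part 9.94% and 4.28%, and the set-1 list gave 2.57% for the first. The cause of these movements was not tested. Gene list shares left their counting intervals in 23 of 46 cases with the set-1 list, 18 with all peaks, 17 in the strongest part and 5 or fewer otherwise. Of the 40 named regions, 38 could be compared with the set-1 list and 9 of them changed class or shift. Under the other alternatives none of those that could be compared did. They were all 40 with all peaks, 39 with fold, 32 with equal numbers of regions and 20 under each of the rest. Part of this was fixed by how the regions were picked and says nothing of stability. Those named for presence had no peak of any strength in the other list, so all peaks could not change their class. The shifted ones were picked as the largest shifts, the smallest being 66.1 points, so the other shift limits could not change them. The HOX cluster share ranged between 41.9% (set-1 list) and 74.0% (all peaks).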

Other observations

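Chromosomes differed in how many regions were found only in NUP98-HOXD13/Flt3-ITD, with shares between 21.4% and 29.1% and a median of 23.7%. Median rank shifts of NUP98-HOXD13/Flt3-ITD minus Flt3-ITD lay between 0.112 and 6.53 points, and those of NUP98-HOXD13 minus wild type between -1.62 and 0.59 points. Chromosome 11 had the highest share and the highest median shift of the main comparison.

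At stem cell genes, 1 named region was found only in the lists with the fusion. It lay near Lmo2, a bridging factor of blood stem cells, and had a −log10 p of 82.5 in NUP98-HOXD13/Flt3-ITD. Another Lmo2 region ranked 73.5 in NUP98-HOXD13/Flt3-ITD against 17.1 in Flt3-ITD, and 52.9 in NUP98-HOXD13 against 59.2 in wild type. Regions near Mllt3 (75.9), Erg (62.3) and Prdm16 (59.4), regulators of stem cell maintenance, had no peak in the set-2 Flt3-ITD list and were present in the Flt3-ITD list of set 1 and in wild type.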
